A study of Danio rerio with 18 samples.

Results

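The genes of mitosis and chromosome segregation described here are those whose symbol names a cyclin B, cdk1, a Polo-like or Aurora kinase, a spindle checkpoint, kinetochore, condensin, cohesin or anaphase-promoting complex (APC/C) protein, a mitotic kinesin, a cytokinesis factor or a cell division cycle-associated (cdca) gene. They were found by matching symbols and not by their levels, but the list of symbols was chosen with earlier results of these data known. Of 8793 genes with a symbol on the array, 67 matched, through 96 probe sets, and the brightest probe set stood for each gene. Of the 67, 62 passed a filter on dim values and were tested. The other 5, birc5b, bub1bb, ccnb1l, cdca9 and rad21l1, lay above the 40th percentile of their own array on fewer than 3 of 18 arrays and were not tested.

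All cells came from zebrafish embryos of 14 to 16 somites kept at 28 °C, were separated by fluorescence, and gave 100 ng of RNA per array. A miR-206 reporter in wild type gave GFP-positive muscle cells and GFP-negative cells, and a miR-124 reporter gave GFP-positive central nervous system (CNS) cells and GFP-negative cells, both in a Dicer mutant and in wild type. Dicer cuts the precursors of microRNAs, and its mutant line is named MZ in the labels, which do not spell the letters out. The 6 groups have 3 arrays each, described as biological replicates in the labels, and the GFP-negative cells, sorted as lacking the reporter's signal, are called the rest below.

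A dividing cell enters mitosis when cyclin B activates the kinase Cdk1, and it condenses its chromosomes with condensin and topoisomerase II. Kinetochores then attach the chromosomes to a spindle that kinesins build, while the spindle checkpoint holds back the APC/C until every chromosome is attached. The APC/C next marks cyclin B and securin for destruction, cohesin is cleaved, and a midzone of bundled microtubules guides cytokinesis. Many of these genes are transcribed mainly in G2 and mitosis, so in a tissue sample their level depends on how many cells divide. In a bulk sample, fewer dividing cells and less RNA per dividing cell cannot be told apart.

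Values below are MAS5 intensities, linear and without unit, and folds are differences of log2(intensity + 16), which understate the change of dim genes. A gene is said to have risen or fallen only where limma's test gave a Benjamini-Hochberg adjusted p under 0.05 over all 9548 features tested. The median intensity of an array ran from 31.1 to 45.2. Correlations of log2 values were 0.971 to 0.992 within a group and 0.866 to 0.981 between groups. Summed intensities of 10 muscle markers were 22179 to 29136 in muscle cells, against 1472 to 2139 in the rest of that line. The summed level of 10 neural progenitor markers was 8405 to 9686 in mutant and 8623 to 9171 in wild-type CNS cells, against 3133 to 4635 in the mutant rest and 2657 to 2872 in the wild-type rest. The dicer1 probe set, a check of the labels within the miR-124 lines only, had a mean of 140.0 ± 60.2 in CNS cells of the mutant, against 245 ± 18.3 in those of wild type (SD, n = 3 each), with limma's adjusted p of 0.022. In the rest its mean was 93.5 ± 22.8 in the mutant, against 198 ± 87.9 in wild type (SD, n = 3 each), with limma's adjusted p of 0.0117, though arrays of the groups overlapped. In the wild-type miR-206 line its mean was 160.4 ± 16.6 in muscle and 149 ± 33.0 in the rest (SD, n = 3 each). These lie near the mutant CNS mean, so the level of dicer1 did not separate mutant from wild type across lines. One array stood apart in 1 list: 4 germ cell markers summed to 3468 on replicate 2 of the wild-type miR-124 rest, against 93.0 and 180.0 on the other arrays of its group.

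Averaged over the 62 members, the mean log2 level was 7.56 ± 0.05 in muscle and 7.87 ± 0.04 in the rest of the miR-206 line (SD, n = 3 each). CNS cells had 8.18 ± 0.07 in the mutant, against 8.16 ± 0.04 in wild type (SD, n = 3 each), while the rest had 7.94 to 8.05 on the 3 mutant arrays, against a mean of 7.66 ± 0.10 in wild type (SD, n = 3). The highest group mean lay in mutant CNS cells for 31 members and in wild-type CNS cells for 21. The lowest lay in muscle for 31 members and in the wild-type miR-124 rest for 16. Members therefore did not all follow the same order of groups, as the account by role below shows. The heat map of all members shows the 2 CNS groups mostly above, and muscle mostly below, the genes' means.

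**Figure D1:**
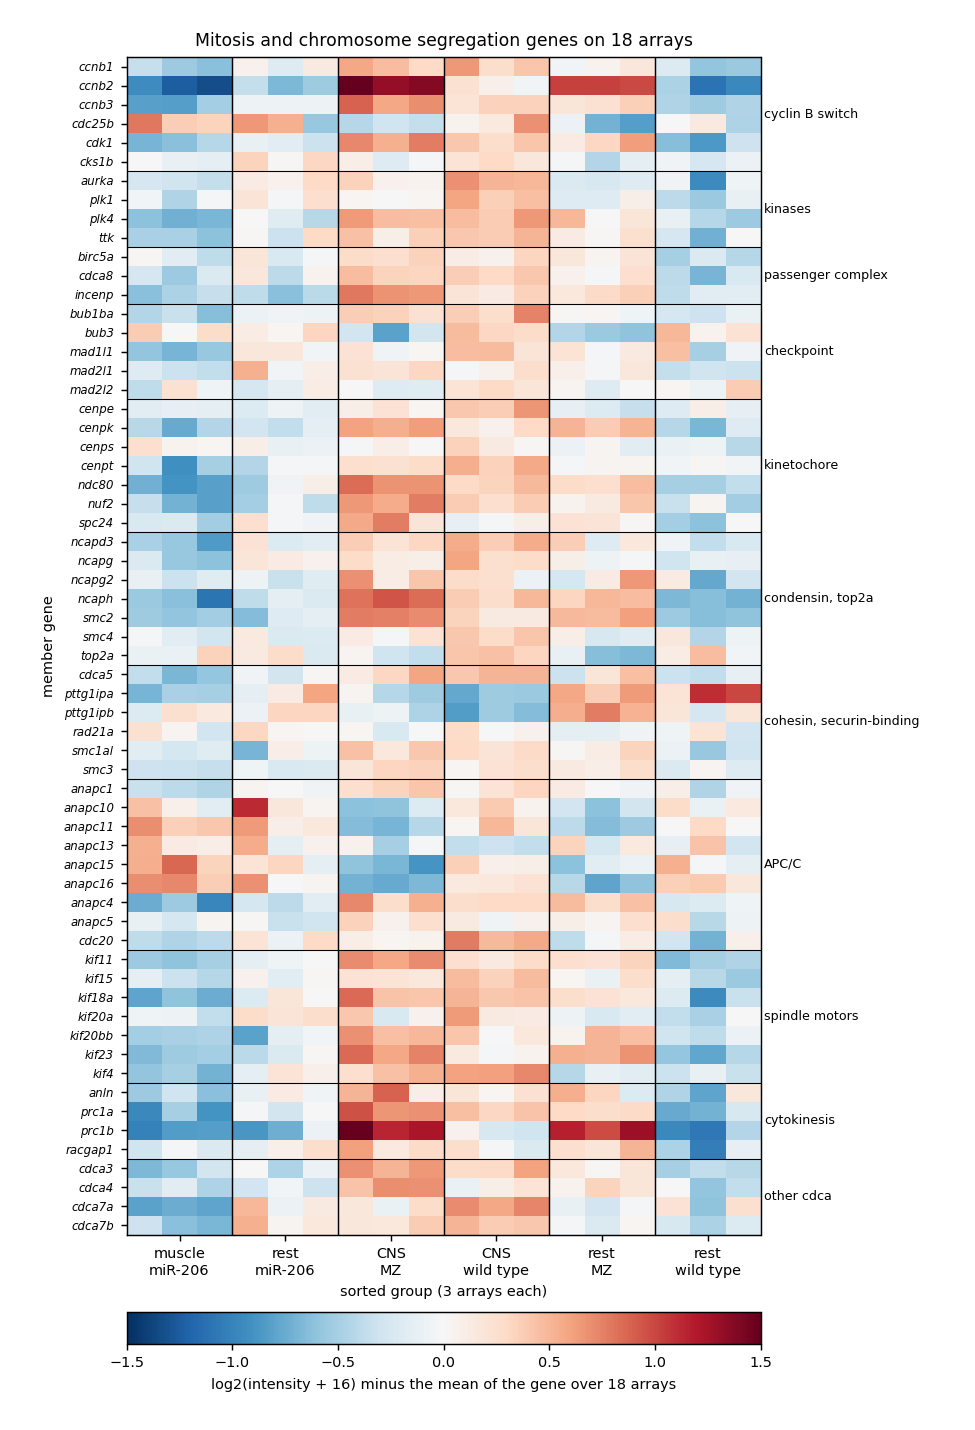
Each row is 1 of the 62 members and each column 1 of 18 arrays, grouped as muscle and rest of the miR-206 line, then mutant (MZ) and wild-type CNS cells, then mutant and wild-type rest; colour is log2(intensity + 16) minus the gene's mean over all arrays, red above and blue below. The muscle columns are mostly blue and both CNS blocks mostly red, while ccnb2 and prc1b are deepest red in the 2 mutant blocks and several APC/C genes and bub3 are blue there.

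In muscle cells, against the rest of the wild-type miR-206 line, no member rose and 24 of 62 fell (38.7%), beside 36.2% of all features called in this comparison, 13.1% of them higher and 23.1% lower. The median fold of the members was -0.33, against -0.06 for all features. Muscle and the rest did not overlap for 33 members, beside 42.4% of all features. At an unadjusted p under 0.05, 2 members were higher and 33 lower (53.2%), beside 16.9% of all features higher and 27.3% lower. With the replicate number as a block, which pairs muscle and rest in this line, 30 members were called, 29 lower and 1, anapc15, higher. Of all features 3870 were then called, in place of 3456. Markers of several other cell types, though not of all, were also lower in muscle. All 10 neural progenitor markers fell, with sums of 126 to 286 in muscle, against 4940.4 to 6594 in the rest. All 8 epidermal markers fell, with sums of 205 to 683 in muscle, against 7734 to 8426 in the rest. All 7 neuronal markers (71.6 to 91.9, against 595 to 846) and all 5 erythroid markers (67.1 to 1012, against 3316 to 5948) fell too. Of 3 tailbud markers only 1 fell, with sums of 2072 to 2644 in muscle, against 1635 to 2599.8 in the rest. None of 4 germ cell markers was called. Their part in the members' folds was not tested.

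Among cyclin B switch genes, 3 of 6 fell in muscle. ccnb2, a cyclin B that activates Cdk1, had 110.1, 86.5 and 80.3 in muscle, against 172, 136 and 151 in the rest. Every muscle array lay below every array of the rest, and the log2 fold was -0.65 ± 0.16 (SE) with limma's adjusted p of 0.00303. ccnb3, another B-type cyclin, fell by 0.64 with limma's adjusted p of 0.000378. ccnb1 fell by 0.51 with limma's adjusted p of 0.00803. cdk1 itself had 300.5, 317 and 366 in muscle, against 458, 444 and 396 in the rest, which did not overlap. Its log2 fold of -0.39 missed the threshold (limma's adjusted p of 0.0525, and 0.0355 with the replicate number as a block). cks1b, a small Cdk-binding subunit, had a log2 fold of -0.30 (limma's adjusted p of 0.0948), and cdc25b, a phosphatase that activates Cdk1, 0.29 (limma's adjusted p of 0.428). Another, dimmer probe set of cdc25b rose in muscle past the threshold when each probe set was its own feature.

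Of 4 mitotic kinase genes, plk4, the kinase of centriole duplication, and ttk, a checkpoint kinase, fell in muscle by 0.47 and 0.52 on the log2 scale, with limma's adjusted p of 0.0211 and 0.0221. The others did not pass without the replicate block: aurka, a centrosomal kinase, had a log2 fold of -0.46 (limma's adjusted p of 0.0504, and 0.0303 with the block) and plk1, which promotes mitotic entry, -0.31 (limma's adjusted p of 0.0956, and 0.0435 with the block). None of the 3 chromosomal passenger genes passed, incenp at -0.02, birc5a at -0.16 and cdca8 at -0.28. Of 6 checkpoint genes, ttk counted again, 4 fell. mad1l1, which carries Mad2 to kinetochores, had 30.9, 27.6 and 31.7 in muscle, against 63.8, 63.4 and 53.0 in the rest. Its log2 fold was -0.72 ± 0.18 (SE), and limma's adjusted p was 0.00326. mad2l1, the checkpoint effector, fell by 0.49. bub3, a checkpoint scaffold, differed little, with a log2 fold of 0.06.

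Of 7 kinetochore genes 2 fell: ndc80, which binds spindle microtubules, by 0.64, and cenpt, of the inner kinetochore, by 0.41 on the log2 scale. cenpt had an adjusted p of 0.0385 by limma, and 0.0574 with the replicate block. spc24, of the outer kinetochore, had a log2 fold of -0.38 and passed limma's test with the block (adjusted p = 0.0419). Of 7 condensin and topoisomerase genes, ncapg, ncaph and ncapd3, subunits of condensin, fell by 0.59, 0.52 and 0.58. top2a, which untangles sister chromatids, had a log2 fold of -0.02 and was dim. Of 7 spindle motors 4 fell, led by kif18a, which damps chromosome movement, with a log2 fold of -0.70 ± 0.18 (SE). kif11, the motor that pushes spindle poles apart, had 448, 431 and 464 in muscle, against 595, 635 and 661 in the rest. The groups were clearly apart, at a log2 fold of -0.48 ± 0.11 (SE) and limma's adjusted p of 0.00137.

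Of the 7 cytokinesis genes, prc1a, a midzone bundler, and kif23, which is shared with the spindle motors, fell. kif20a and kif20bb are also in both lists, so the counts of these roles, here and below, are not separate. The APC/C genes split: 3 of 9, anapc1, anapc4 and the activator cdc20, fell by 0.39, 0.48 and 0.55, while anapc15 and anapc16, small subunits, had positive folds of 0.45 and 0.36 that missed the threshold, though anapc15 passed limma's test with the block (adjusted p = 0.0417). anln (-0.48) and cdca5 (-0.44) also passed limma's test with the block alone (adjusted p = 0.0218 and 0.0136). The largest falls were those of cdca7a (-0.96) and cdca7b (-0.78), chromatin factors tied in mammals to DNA methylation and not parts of the mitotic machinery. cdca7a had 603, 628 and 609 in muscle, against 1507, 996 and 1168 in the rest, and no array of muscle reached the rest. pttg1ipa, whose mammalian relative binds securin and is not itself securin, fell by 0.75 on the log2 scale but was dim, with 9.30, 13.4 and 13.2 in muscle, against 21.2, 28.8 and 45.9 in the rest.

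Without a single array, 16 to 24 members were called in muscle, and 10 of the 24 lost the call without some array: anapc1, anapc4, bub1ba, cdc20, cenpt, kif23, ncaph, plk4, pttg1ipa and ttk, with adjusted p up to 0.245. That highest value was of cenpt without muscle replicate 2, where its log2 fold was -0.24. When arrays were centred on their medians, 11 members fell and 2, anapc15 and anapc16, rose, and the median of all features was then 0.14 in place of -0.06. Centring shifts the folds of all features by the same amount. The members' median minus the median of all features, -0.27, therefore could not change and is no check of the result.

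In wild-type CNS cells, against the rest, 40 members rose and 2 fell (67.7%), beside 32.8% of all features called, 14.5% of them higher and 18.3% lower. The members' median fold was 0.55, against 0.02 for all features. The groups did not overlap for 44 members, beside 43.1% of all features. ncaph, the largest rise, had 374, 342 and 406 in CNS cells, against 172, 176 and 167 in the rest. The lowest CNS array lay well above the highest of the rest, and the log2 fold was 1.05 ± 0.14 (SE) with limma's adjusted p of 5.41e-06. cdk1 had 665, 602 and 668 in CNS cells, against 314, 266 and 399 in the rest, a log2 fold of 0.97 ± 0.15 (SE) and limma's adjusted p of 4.06e-05. prc1a, kif18a and ccnb2 followed, at 0.96, 0.95 and 0.93.

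By role, 4 of 6 switch genes, 4 of 4 kinases and 3 of 3 passenger genes rose in wild-type CNS cells. plk1 had 1546, 1305 and 1402 in CNS cells, against 772, 689 and 944 in the rest, with no overlap, and rose by 0.82 ± 0.14 (SE) on the log2 scale. aurka rose by 0.92. Of 7 kinetochore genes 6 rose, of which ndc80 by 0.83 ± 0.14 (SE), and of 7 spindle motors 6 did, with kif11 at 0.76. Of 7 condensin and topoisomerase genes 5 rose, and top2a was not among them (0.22). Checkpoint genes rose in 3 of 6: ttk, bub1ba and mad2l1, while bub3 stayed at 0.10. A dimmer probe set of bub3 rose past the threshold when each probe set was its own feature. Of the 7 cytokinesis genes 5 rose, racgap1 among them (0.55), the partner of kif23 in the midzone complex. APC/C genes rose in 2 of 9 only, cdc20 (0.92) and anapc4 (0.46), and the other 7 folds ran from -0.35 to 0.32. Cohesin genes were divided: smc1al and cdca5, which protects cohesin, rose by 0.58 and 0.75, smc3 and rad21a had log2 folds of 0.30 and 0.16, and pttg1ipa and pttg1ipb fell by 1.39 and 0.71.

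Of the 24 members that fell in muscle, 21 rose in wild-type CNS cells. They are 87.5% of the muscle list and 52.5% of the 40 CNS risers. The 3 others are anapc1, mad1l1 and pttg1ipa. Of all 62 members 64.5% rose in wild-type CNS cells, and the overlap was not counted over all features. The 2 comparisons share no array. Across the 62 members the muscle and CNS folds had a Pearson r of -0.40 and a Spearman rho of -0.60, beside r of -0.15 over all features. Without anapc16 and anapc15, the 2 members whose muscle folds lay farthest from the members' median, r was -0.34. pttg1ipa and pttg1ipb, farthest out in the CNS fold, were kept in. The correlations are descriptions across genes, which are not independent replicates. Without replicate 2 of the wild-type rest, the array with the germ cell markers, 38 members were called in CNS cells (36 higher and 2 lower). Without any single array of the comparison, 37 to 44 were called, and 32 of 42 kept the call each time. The 10 that lost it without some array were anapc4, cenps, cenpt, incenp, kif20a, mad2l1, prc1b, racgap1, smc1al and smc4. Without replicate 2 of the rest, racgap1 had a log2 fold of 0.30 (limma's adjusted p of 0.257) in place of 0.55, and cdca7a 0.45 in place of 0.72. Erythroid markers summed to 35.5 to 77.6 in CNS cells, against 6668 to 7539 in the rest, and muscle markers to 226 to 448, against 8263 to 10821; their part in the folds was not tested.

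**Figure D2:**
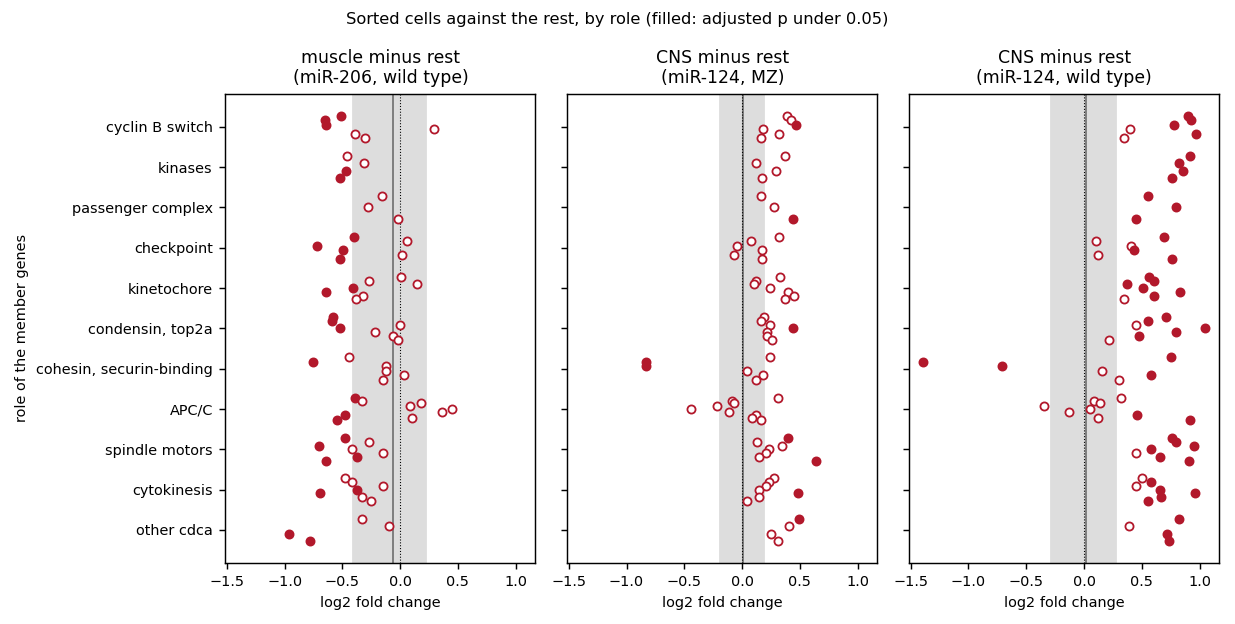
Each point is 1 member in 1 role, at its log2 fold change of GFP-positive minus GFP-negative cells in the miR-206 line (left), the Dicer-mutant miR-124 line (middle) and the wild-type miR-124 line (right); filled points passed adjusted p under 0.05, the grey band spans the quartiles of all features and the grey line their median. The points lie mostly left of 0 in muscle, just right of it in mutant CNS cells, and farther right in wild-type CNS cells, with pttg1ipa and pttg1ipb alone far left in both CNS panels.

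In mutant CNS cells, against the mutant rest, 7 members rose and 2 fell (14.5%), beside 15.5% of all features called, 6.49% of them higher and 9.03% lower. The share of members called in either direction was thus close to that of all features, but 11.3% of members rose, against 6.49%. At an unadjusted p under 0.05 by limma, 18 members were higher (29%) and 3 lower (4.84%). Of all features 11.9% were higher and 13.7% lower at that threshold. The fold was positive for 53 of 62 members. The members' median fold was 0.21, against 0.01 for all features, and groups did not overlap for 26 members, beside 38.7% of all features. kif4, a chromosome-binding kinesin, had 418, 478 and 512 in mutant CNS cells, against 255, 322 and 310.3 in the mutant rest, and rose by 0.64 ± 0.13 (SE) on the log2 scale with limma's adjusted p of 0.00153. cdca3, a factor of mitotic entry in mammals, prc1a, ccnb3, ncaph, incenp and kif11 also rose, by 0.40 to 0.49 on the log2 scale. pttg1ipa and pttg1ipb each fell by 0.83. All 7 risers were also among the 40 of wild type, a list that holds 64.5% of the members. This overlap was not counted over all features. cdk1 had 828, 728 and 861 in mutant CNS cells, against 542, 621 and 777 in the mutant rest, which overlapped, and a log2 fold of 0.32 (limma's adjusted p of 0.187).

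Between 3 and 7 members were called in mutant CNS cells without a single array. Of all features 1125 to 1343 were then called, in place of 1482. The count of members fell to 3 without CNS replicate 1 or 3 and to 5 without CNS replicate 2. It fell to 4 without replicate 1 or 2 of the rest. Only kif4 and pttg1ipb kept the call every time. With the replicate number as a block, 10 members were called: ccnb1 (adjusted p = 0.0486) and ccnb2 (adjusted p = 0.0379) passed limma's test and prc1a did not (adjusted p = 0.052). Of all features 1694 were called with the block, in place of 1482.

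The difference between the mutant and the wild-type sort effect was tested directly as an interaction, mutant CNS minus rest, less wild-type CNS minus rest. No member passed by limma, beside 2.58% of all features called, 2.27% of them higher and 0.304% lower. At an unadjusted p under 0.05, 20 of 62 members (32.3%) had an interaction below 0 and none above it, beside 4.57% of all features below 0 and 9.07% above. The sign was negative for 56 of 62 members, and the members' median was -0.35, against 0.00 for all features. The arrays of the wild-type miR-124 rest enter both the interaction and the wild-type CNS sort. They also enter the comparisons of that rest with the mutant rest and with the miR-206 rest, so these results are not independent.

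cdc20 had the largest negative interaction, -0.75 ± 0.24 (SE), with limma's adjusted p of 0.124. plk1 had -0.70 ± 0.20 (SE), with limma's adjusted p of 0.0786, and 0.0289 with the replicate number as a block. kif15, a spindle motor, had -0.67 (limma's adjusted p of 0.0827), cdk1 -0.64 (limma's adjusted p of 0.137) and ncaph -0.61 (limma's adjusted p of 0.124). By role, the median interaction was lowest for the kinases (-0.58) and cytokinesis genes (-0.48) and nearest 0 for cohesin (-0.15) and APC/C genes (-0.17). Across the members, the mutant and wild-type sort folds had a Pearson r of 0.84 and a Spearman rho of 0.67, beside r of 0.83 over all features; without pttg1ipa and pttg1ipb, r was 0.71. Epidermal markers, 8 genes, summed to 4439.5 to 6736 in mutant CNS cells, against 1569 to 2396 in wild-type CNS cells, and their part in the interaction was not tested. Replicates 1 and 3 of the wild-type rest moved the count: 1 member, kif15, was called without the one and 2, plk1 and cdc20, without the other, while none was called without its replicate 2.

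**Figure D3:**
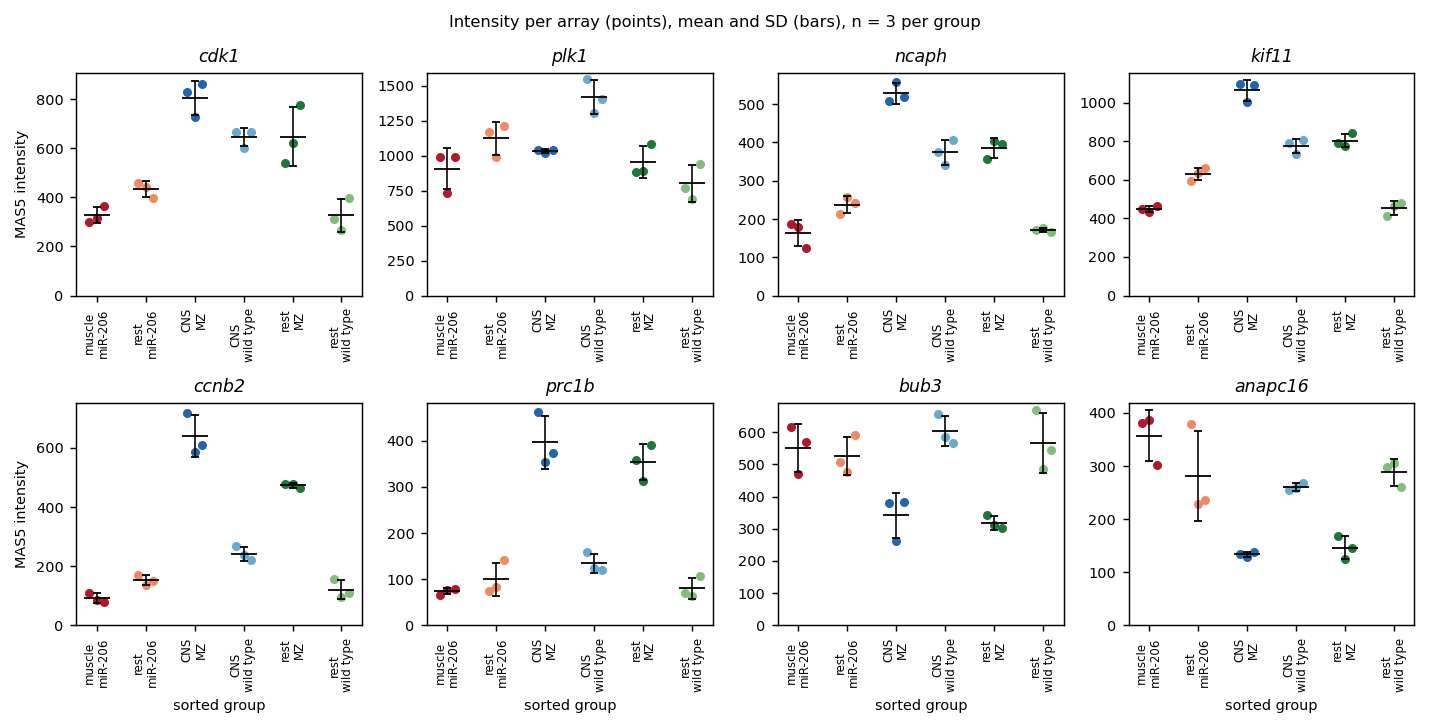
MAS5 intensity of 8 members on each array (points), with the group mean and SD (bars, n = 3), for muscle and rest of the miR-206 line, then mutant (MZ) and wild-type CNS cells, then mutant and wild-type rest; each panel has its own axis from 0. cdk1, plk1, ncaph and kif11 are lowest or nearly so in muscle and the wild-type rest; ccnb2 and prc1b are highest in both mutant groups, while bub3 and anapc16 are lowest there.

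Among CNS cells, 12 members rose and 10 fell in the mutant against wild type (35.5%), beside 34.7% of all features called, 19.3% of them higher and 15.4% lower. The share of members called was near that of all features, and the members' median fold of 0.05 was close to the 0.02 of all features. Groups did not overlap for 36 members, beside 56.1% of all features. The changes therefore ran in both directions within the list. With arrays centred on their medians, 9 members were higher and 13 lower. The mean of probe sets per gene gave 8 higher and 10 lower, and array weights gave 18 higher and 13 lower. Of all features 3356, 3266 and 4714 were called in these settings, in that order, in place of 3313. The higher count of members with array weights thus came with a higher count of all features.

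The largest rises among CNS cells were those of prc1b and ccnb2. prc1b, a midzone bundler like prc1a, had 461, 353 and 374 in mutant CNS cells, against 158, 125 and 119.9 in wild-type CNS cells. No array overlapped, and the log2 fold was 1.45 ± 0.20 (SE) with limma's adjusted p of 1.76e-05. ccnb2 had 719, 586 and 610.3 in mutant CNS cells, against 268, 238 and 219.5 in wild-type CNS cells, with a log2 fold of 1.34 ± 0.16 (SE) and limma's adjusted p of 4.6e-06. kif23 rose by 0.67, and smc2, a core condensin subunit, by 0.54. incenp, ncaph, kif11 and ccnb3 rose by 0.42 to 0.48, cenpk and spc24 of the kinetochore by 0.41 and 0.53, cdca4, a nuclear protein of transcription, by 0.54, and pttg1ipb by 0.46. prc1a, the other prc1 gene, had a log2 fold of 0.37 (limma's adjusted p of 0.0771). The 2 measured probe sets of incenp had folds of opposite sign here, and 1 of them passed the threshold when each was its own feature.

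Of the 10 that fell among CNS cells, 5 were APC/C genes, of 9 measured. anapc16 had 134, 129.7 and 138 in mutant CNS cells, against 255, 259 and 269 in wild-type CNS cells. The arrays of each group lay close together and far from the other group, with a log2 fold of -0.88 ± 0.16 (SE) and limma's adjusted p of 0.000394. anapc11, the catalytic RING subunit, had 156, 149.9 and 184 in mutant CNS cells, against 258, 364 and 289 in wild-type CNS cells, with a log2 fold of -0.82 ± 0.17 (SE) and limma's adjusted p of 0.000764. anapc15 fell by 0.90 and anapc10, of substrate recognition, by 0.68, though anapc15 was dim, with 6.70, 5.30 and 2.70 in mutant CNS cells, against 28.2, 20.3 and 20.6 in wild-type CNS cells. cdc20 fell by 0.55. The other 4 APC/C genes, anapc1, anapc4, anapc5 and anapc13, had log2 folds of 0.15 to 0.22 that did not pass.

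bub3 had 381, 262 and 382 in mutant CNS cells, against 657, 585 and 567 in wild-type CNS cells, and fell by 0.81 ± 0.16 (SE), with limma's adjusted p of 0.000593. plk1 had 1039, 1021 and 1041 in mutant CNS cells, against 1546, 1305 and 1402 in wild-type CNS cells, and fell by 0.45. cenpe, a kinetochore motor, fell by 0.37 and cdca7a by 0.56. top2a fell by 0.60, but its probe sets disagreed: the brightest had a log2 fold of -0.60, another 0.86, and the last 0.24, with limma's adjusted p of 0.019, 0.02 and 0.356 when each probe set was its own feature. Its direction is therefore uncertain. Leaving out 1 array gave 12 to 19 calls in place of 22, with 12 without wild-type CNS replicate 1 and 14 without mutant CNS replicate 2. Of all features 2529 to 2697 were then called, in place of 3313. The call was kept each time by 10 of the 22 members, among them ccnb2, prc1b, kif23, smc2, anapc11, anapc15, anapc16 and bub3. Neuronal markers, 7 genes, summed to 1261 to 1466 in mutant and 789.5 to 849 in wild-type CNS cells. Of these 7 genes 3 rose and none fell, with log2 folds from -0.14 to 1.74. Of 8 epidermal markers 5 rose. The part of these markers in the members' folds was not tested.

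In the rest of the embryo, 29 members rose and 4 fell in the mutant against wild type (53.2%), beside 34.9% of all features called, 17.5% of them higher and 17.4% lower. The members' median fold was 0.39, while that of all features rounds to 0. Groups did not overlap for 37 members, beside 46.1% of all features. prc1b had 359, 313 and 389.9 in the mutant rest, against 69.3, 63.6 and 107 in the wild-type rest, and rose by 1.97 ± 0.20 (SE), with limma's adjusted p of 7.06e-07. ccnb2 had 477, 478 and 464 in the mutant rest, against 158, 96.5 and 108 in the wild-type rest, and rose by 1.86 ± 0.16 (SE), with limma's adjusted p of 1.37e-07. Neither gene overlapped between the groups, and these were the 2 largest rises in both fractions.

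By role, 4 of 6 switch genes rose in the mutant rest. cdk1 had 542, 621 and 777 in the mutant rest, against 314, 266 and 399 in the wild-type rest, without overlap, and rose by 0.96 ± 0.15 (SE). ccnb1 and ccnb3 rose by 0.51 and 0.73. Of 4 kinases plk4 and ttk rose, by 0.59 and 0.45, while plk1 had a log2 fold of 0.25 (limma's adjusted p of 0.179). All 3 passenger genes rose, by 0.50 to 0.53. Kinetochore genes rose in 4 of 7, cenpk (0.91), ndc80 (0.78), spc24 (0.51) and nuf2 (0.48). smc2 and ncaph rose by 1.12 and 1.10. Spindle motors rose in 5 of 7, with kif23 at 1.17 and kif11 at 0.81, and cytokinesis genes in 5 of 7, with racgap1 at 0.85. kif20a, kif20bb and kif23 count in both lists. kif20bb rose by 0.59, but a second probe set for it fell by 0.47.

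The 4 that fell in the mutant rest were anapc16 (-0.91), bub3 (-0.79), top2a (-0.65) and anapc11 (-0.62), and all 4 also fell in mutant CNS cells. bub3 had 342, 312 and 301 in the mutant rest, against 669.5, 486 and 545 in the wild-type rest, and anapc16 had 168, 126 and 146, against 299, 306 and 259.8; in both genes no array overlapped. For top2a the other probe sets had log2 folds of 0.43 and 0.30, so its direction is uncertain here too. A dimmer probe set of bub3 had a fold of opposite sign in the rest, which did not pass the threshold. All 12 members that rose among mutant CNS cells also rose in the mutant rest, which is 41.4% of the 29 that rose there. Those 29 are 46.8% of the members. Neither this overlap nor that of the 4 that fell was counted over all features. The comparisons share no array, but their arrays come from the same 2 lines. Across the 62 members the mutant effects in the 2 fractions had a Pearson r of 0.90 and a Spearman rho of 0.85, beside r of 0.71 over all features, and r was 0.86 without ccnb2 and prc1b. Members called in 1 or both fractions numbered 39, and the plot of mutant effects shows them in order. Of all features 34.7% were called among CNS cells and 34.9% in the rest. The share of all features called in 1 or both was not counted, so 39 has no background here.

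Without replicate 2 of the wild-type rest, the array with the germ cell markers, 25 members were called (22 higher and 3 lower), the lowest count without any 1 array; the highest was 32. Of 33 calls, 22 stood in each case, and those lost without some array were cdca4, cdca8, kif15, kif20bb, mad2l1, nuf2, pttg1ipb, smc1al, spc24, top2a and ttk. ttk had a log2 fold of 0.26 without replicate 2 of the wild-type rest, in place of 0.45. Erythroid markers summed to 1415 to 2969 in the mutant rest, against 6668 to 7539 in the wild-type rest, and tailbud markers to 3296 to 4777, against 1424 to 3018. Their part in the rises was not tested.

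**Figure D4:**
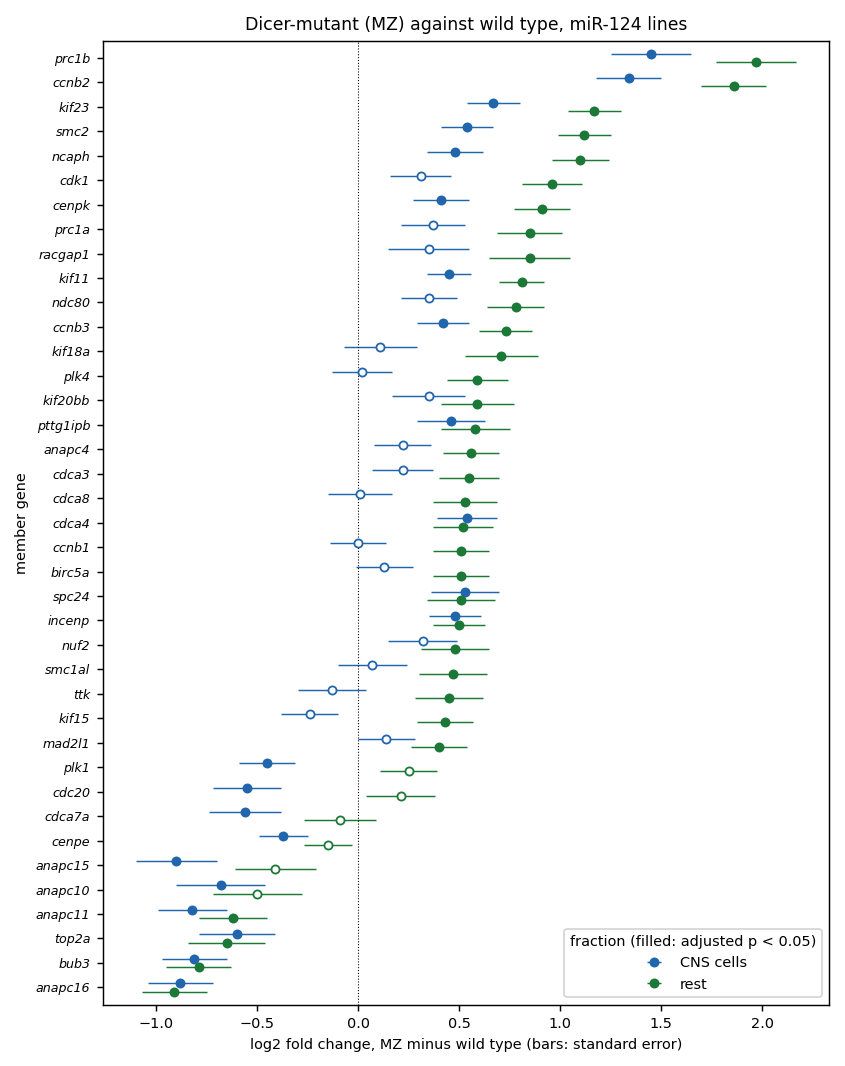
Log2 fold change of mutant (MZ) minus wild type, with its standard error, for the 39 members called in CNS cells (blue) or the rest (green); filled points passed adjusted p under 0.05 and members are ordered by the fold in the rest. prc1b and ccnb2 lie far to the right in both fractions, anapc16, bub3, top2a and anapc11 left of 0 in both, and most other members lie farther right in the rest than in CNS cells.

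Wild-type muscle and CNS cells were compared directly, across the 2 lines. In muscle 3 members rose and 43 fell against CNS cells (74.2%), beside 44.4% of all features called, 18.3% of them higher and 26.1% lower. The members' median fold was -0.69, against -0.06 for all features, and groups did not overlap for 50 members, beside 56.7% of all features. ccnb2 had 110.1, 86.5 and 80.3 in muscle, against 268, 238 and 219.5 in CNS cells, a log2 fold of -1.26 ± 0.16 (SE) and limma's adjusted p of 1.85e-06. cdca7a (-1.45), kif4 (-1.24), ndc80 (-1.18) and prc1a (-1.18) were the others with the largest falls. cdk1 fell by 0.95, with 300.5, 317 and 366 in muscle, against 665, 602 and 668 in CNS cells, and the groups were far apart.

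Every kinase, passenger gene and spindle motor measured fell in muscle against CNS cells, 4 of 4, 3 of 3 and 7 of 7. Cytokinesis genes fell in 6 of 7, with racgap1 the exception (-0.19, limma's adjusted p of 0.479). The 3 that rose were pttg1ipb (0.73), anapc13 (0.60) and anapc16 (0.42), a pttg1ip gene and 2 small APC/C subunits, and anapc13 and anapc16 lost the call without some array. Within the APC/C list 3 of 9 fell, anapc1, anapc4 and cdc20. Between 40 and 44 members were called without a single array. kif20a had a log2 fold of -0.30 without replicate 1 of the CNS cells, in place of -0.47, and lost the call. Its 2 measured probe sets had folds of opposite sign here, and 1 of them passed the threshold when each was its own feature. anln, birc5a (a passenger gene), mad2l1 and smc1al also lost the call without some array.

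In the wild type, the rest of the miR-206 line was also set against the rest of the miR-124 line. Here 4 members rose and none fell (6.45%), beside 6.13% of all features called, 2.23% of them higher and 3.9% lower; at an unadjusted p under 0.05, 22 were higher and 1 lower, beside 9.19% of all features higher and 11.4% lower. The members' median fold was 0.24, against -0.02 for all features, and groups did not overlap for 14 members, beside 17.7% of all features. The 4 were cdca7b (0.55), mad2l1 (0.52), plk1 (0.49) and kif11 (0.46), and each lost the call without some array. plk1 had 1168, 993 and 1210.3 in the miR-206 rest, against 772, 689 and 944 in the miR-124 rest. Counts were 2 without replicate 2 of the miR-124 rest and 10 without its replicate 3. Neural progenitor markers summed to 4940.4 to 6594 in the miR-206 rest, against 2657 to 2872 in the miR-124 rest, and muscle markers to 1472 to 2139, against 8263 to 10821; their part was not tested.

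The 18 members called in none of the 3 sorts without the replicate block were drawn from most roles: anapc5, anapc10, anapc11, anapc13, anapc15 and anapc16 of the APC/C, anln and kif20bb of cytokinesis, bub3 and mad2l2 among the checkpoint genes, ncapg2 and top2a, rad21a and smc3 of cohesin, cdc25b, cks1b, spc24 and cdca4. rad21a, the cohesin subunit cleaved at anaphase, passed the test in none of the comparisons. Its mean was 1711 ± 300.2 in muscle and 1852 ± 223 in the rest of that line, 1626 ± 159 in CNS cells of the mutant and 1846 ± 185 in those of wild type, and 1579 ± 47.5 in the mutant rest and 1659 ± 285 in the wild-type rest (SD, n = 3 each). anln, which scaffolds the contractile ring, had 542 ± 149.6 in CNS cells of the mutant and 412 ± 31.6 in those of wild type (SD, n = 3 each).

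Of 16 members with several measured probe sets, folds of opposite sign occurred in 46 of 128 pairs of member and comparison. Only for top2a among CNS cells and kif20bb in the rest were opposite folds both past the threshold, each in the comparison of mutant with wild type.

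Genes of G2 and mitosis outside the symbol pattern, 40 of them measured, gave 2 higher and 9 lower in muscle and 27 higher and none lower in wild-type CNS cells, each against the rest of its line, with medians of -0.24 and 0.55. Of all features 13.1% were higher and 23.1% lower in muscle, so the share lower is near that background, and 14.5% were higher and 18.3% lower in wild-type CNS cells. mybl2b, a transcription factor of the cell cycle, and esco2, a cohesin acetyltransferase, fell in muscle by 0.97 and 0.99, while lmnb1, of the nuclear lamina, rose by 0.90. tacc3, of the spindle, rose by 0.88 in wild-type CNS cells. In the mutant rest, against the wild-type rest, 21 rose and none fell, beside 17.5% of all features higher and 17.4% lower, with nusap1, a microtubule bundler, at 1.46 and foxm1, a transcription factor of G2 genes, at 0.97. Among CNS cells 9 rose and 2 fell in the mutant, beside 19.3% of all features higher and 15.4% lower. The share that rose is near the background, and the share that fell is below it. nusap1 had a log2 fold of 1.05 there and fbxo5, an APC/C inhibitor, -0.70.

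Genes of G1 and S phase, 36 of them measured, were as follows in the sorts: none was higher and 31 were lower in muscle (median -0.63), beside 23.1% of all features lower, and 34 were higher and none lower in wild-type CNS cells (median 0.67), beside 14.5% of all features higher. In mutant CNS cells 2 were higher and none lower, and the share called higher was near the 6.49% of all features. All folds of the list were positive there, from 0.05 to 0.54, with a median of 0.27, against 0.01 for all features. Among CNS cells 2 were higher and 11 lower in the mutant, beside 19.3% of all features higher and 15.4% lower. In the rest 11 were higher and 3 lower in the mutant, beside 17.5% and 17.4% of all features. tyms, of thymidylate synthesis, rose by 1.14 in mutant CNS cells and by 1.80 in the mutant rest, while pcna, the replication clamp, fell by 0.71 and 0.61 there. Of 13 measured genes of cell cycle exit, 1 rose and 1 fell in muscle against its rest, beside 13.1% of all features higher and 23.1% lower, so neither share exceeded the background. cdkn1ca, a Cdk inhibitor, rose by 0.70 and btg3, an antiproliferative gene, fell by 0.73. In wild-type CNS cells 1 rose and 4 fell against the rest, beside 14.5% of all features higher and 18.3% lower. btg3 rose by 0.49, while gadd45ba, gadd45bb and gadd45ab, of the stress response, fell by 1.40, 2.08 and 1.43 and btg1, another antiproliferative gene, by 0.65.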

How the data were processed

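Expression was measured on 18 Affymetrix arrays, 6 sorted groups of 3. The deposited values are intensity, made by the authors with MAS5 per the submitters' processing notes; neither version nor scaling target nor calls of detection are stated in the sources used here. Control probe sets (115 of 15617) were left out. Of the other 15502, 10795 had 1 gene symbol, 135 several genes and 4572 none listed, by the platform annotation; RefSeq (GRCz12tu) was used for names only and held the gene ID of 10711. No sequences are given, since no promoter or protein table was used here. Columns of other series numbered 0.

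Values were tested as log2(intensity + 16). Probe sets above the 40th percentile of their own array on at least 3 of 18 arrays were kept (10704), with the brightest per gene, which gave 9548 features. limma 3.58.1 in R 4.3.3 fitted 1 mean per group to all arrays (12 residual degrees of freedom), with an intensity trend, and the two-sided p-values were adjusted by Benjamini-Hochberg in each of 8 comparisons at 0.05. The code was tested on simulated data. Python 3.11.15, pandas 2.3.3, numpy 2.4.6 and matplotlib 3.10.9 handled tables and figures. The number of arrays limits the precision.

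The members, roles and gene lists were chosen with earlier results of these data known. Genes named with values were a core of textbook mitotic genes, the 5 largest rises and falls among called members of each comparison, members called against the majority, those whose probe sets disagree in sign, and up to 4 genes of each other list by adjusted p; bub1ba, cenpe, cenpk, cenpt, kif15, ncapd3, btg1, the members whose call or value turns on a block or an array, and the genes listed as not called were named after their values were seen. Alternatives were other pseudocounts, no filter, other scalings, the mean of probe sets, array weights, only the arrays compared, the replicate number as a block, and leaving out each array. Same-numbered positive and negative arrays deviated together in the line with the miR-206 reporter (r = 0.367, 0.372 and 0.203) and in the mutant line (r = 0.104, 0.275 and 0.297), but not in the wild-type miR-124 line (r = 0.181, 0.00284 and -0.0859). The reported calls use no pairing. The fit with the number, taken from the labels, as a block is an alternative, given beside the results of the 2 paired lines and of the interaction where it changes a call.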

Additional observations from a re-analysis of the deposited data

How the results depend on the processing

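Member calls were counted again under 9 other settings and without each array. The counts in muscle, wild-type CNS cells, mutant against wild type in either fraction, and muscle against CNS cells stayed within 1.5 times the reported ones under each setting, except that 13 members were called in muscle (2 higher, 11 lower) with arrays centred on their medians. With that centring 3769 of all features were called in muscle, in place of 3456. In mutant CNS cells 19 members were called with array weights and 16 with only the arrays compared, in place of 9. Of all features 2411 and 2199 were called there, in place of 1482. For the interaction, 1 member, plk1, was called with the replicate block, 2 with array weights and 2 with only the arrays compared, in place of 0. Of all features 380, 353 and 347 were called in these settings, in place of 246. Between the rests of the wild-type lines, 8 members were called with quantile normalization and 12 with arrays centred on their medians, in place of 4. With array weights 1 was called, and with only the arrays compared 0. Of all features 668, 656, 371 and 198 were called in these 4 settings, in place of 585. The cause was not tested. Centring moved the median of all features from -0.06 to 0.14 in muscle, from 0.02 to 0.17 in wild-type CNS cells (51 members called) and from -0.06 to 0.06 in muscle against CNS cells (41). Of all features 3706 were then called in wild-type CNS cells, in place of 3129. In muscle against CNS cells 4242 were called with and without centring. The replicate block moved no other count by over 1.5 times. For top2a, the mean of its probe sets turned the mutant fold to 0.16 in CNS cells and 0.03 in the rest.

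Without 1 array at a time, counts ran from 16 to 24 in muscle, 37 to 44 in wild-type CNS cells, 3 to 7 in mutant CNS cells, 12 to 19 for mutant against wild type in CNS cells, 25 to 32 in the rest, 0 to 2 for the interaction, 40 to 44 for muscle against CNS cells and 2 to 10 between the rests. Of 180 called values, 61 were lost without some array. Counts over all features moved too. In muscle 2991 to 3710 features were called in place of 3456, and in wild-type CNS cells 2480 to 2961 in place of 3129. For the mutant rest against the wild-type rest 2484 to 3333 were called in place of 3334. Dim probe sets carry the least signal over background, and the arrays, 3 per group, limit what can be called.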
